A study of Homo sapiens with 18 samples.

Results

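SPP1, POSTN, TNC, THBS1, THBS2 and SPARC, 6 genes of secreted matricellular proteins, were followed among the 38716 gene symbols of 18 libraries from IMR90, a widely distributed line of human fetal lung fibroblasts with a finite lifespan in culture. They were chosen by their mRNA and footprint values in young, old and ICM cells, so their levels and changes below are descriptions and carry no p-value. Young cells proliferated at low passage, and old cells had reached replicative senescence at high passage. ICM cells had low passage too and were given inflachromene (ICM), a compound that targets HMGB1 and HMGB2, proteins of chromatin. Each condition had 3 replicate lysates, and each lysate gave 1 mRNA-seq library of poly(A)-selected RNA and 1 Ribo-seq library, which holds the mRNA fragments shielded by ribosomes (footprints). All of the cells came from 1 line, no group carries a transgene or deletion by the labels, and the labels give no passage number, ICM dose or duration of treatment for these libraries, although the study describes the ICM cells profiled here as treated for several days.

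Matricellular proteins are secreted into the extracellular matrix but act mainly as signals rather than as scaffold. They bind integrins and other receptors, growth factors, proteases and collagen, and they are best known from wounds, fibrosis, bone and tumours. SPP1 encodes osteopontin, an acidic phosphoprotein made by osteoblasts, macrophages and epithelia. POSTN encodes periostin, a product of activated fibroblasts that binds collagen. TNC encodes the large hexameric protein tenascin-C, THBS1 and THBS2 encode the thrombospondins 1 and 2, and SPARC encodes osteonectin, which binds collagen and calcium.

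The members differ in the receptor motif that their coding sequences hold. Arginine-glycine-aspartate is the tripeptide that several integrins bind. In the MANE Select transcripts of GENCODE v44 lifted to GRCh37, the build named in the submitters' processing notes, codons for this tripeptide stood in frame 1 time each in SPP1, TNC, THBS1 and THBS2 and 0 times in POSTN and SPARC. The 4 sites are shown because this is what ligands of 3 protein families share. Each is the coding strand with the tripeptide codons in capitals.
SPP1, exon 6, plus strand of chr4:88902885-88902893: tatgatggcCGAGGTGATagtgtggtt
TNC, exon 7, minus strand of chr9:117840259-117840267: atctcccgcAGAGGTGACatgtcaagc
THBS1, exon 18, plus strand of chr15:39885209-39885217: ggcgatggtCGAGGTGATgcctgcaaa
THBS2, exon 18, minus strand of chr6:169623554-169623562: ggtgatggaCGGGGTGATatttgtaaa
The coordinates are those of the capitals, and in THBS1 and THBS2 the bases before them come partly from the preceding exon. The codons began at codon 159 of 314 in SPP1, 877 of 2201 in TNC, 926 of 1170 in THBS1 and 928 of 1172 in THBS2. POSTN, with 836 codons in 23 exons (chr13:38136720-38172981, minus strand), and SPARC, with 303 codons in 10 exons (chr5:151040657-151066536, minus strand), held no such run.

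Depth bears on every footprint value below. The Ribo-seq libraries held 46239 to 1718521 reads in coding sequences (CDS), a 37.2-fold range, while the mRNA-seq libraries held 7902427 to 14144455 reads in coding genes. In the Ribo-seq libraries of young replicate 1 and old replicate 2 only 34.4% and 15.0% of the reads lay in the CDS, against 54.7% to 88.8% in the other 7. Values with and without these 2 lysates are given where they differed by more than the spread between replicates. All 6 members passed the filter on low counts in both assays. SPP1 had so few reads in young and old cells that it passed only through its ICM libraries. Levels are CPM (counts scaled to library size), scaled further with TMM factors within each assay. Changes are log2 values from an edgeR fit of the 9 libraries of an assay, with their standard error (SE).

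The 6 genes did not move as a block. SPP1 mRNA was near 0 in young and old cells and high in ICM cells, POSTN was lowest in old cells, TNC and THBS2 were lower in old than in young cells and lowest in ICM cells, and THBS1 and SPARC were highest in old and lowest in ICM cells. In mRNA, 1 of the 6 was at least 2-fold higher in ICM than in young cells (SPP1) and 3 were at least 2-fold lower (POSTN, TNC and THBS2), where 9.84% and 11.0% of the 13173 genes tested were. Between old and young cells 1 was 2-fold higher (THBS1) and 3 were 2-fold lower (POSTN, TNC and THBS2), against 7.84% and 8.23% of all genes. Between ICM and old cells all 6 differed by at least 2-fold, 2 of them higher in ICM (SPP1 and POSTN) and 4 lower, against 7.36% and 9.01%. Since these contrasts chose the members, the counts are not set against those shares.

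**Figure D1:**
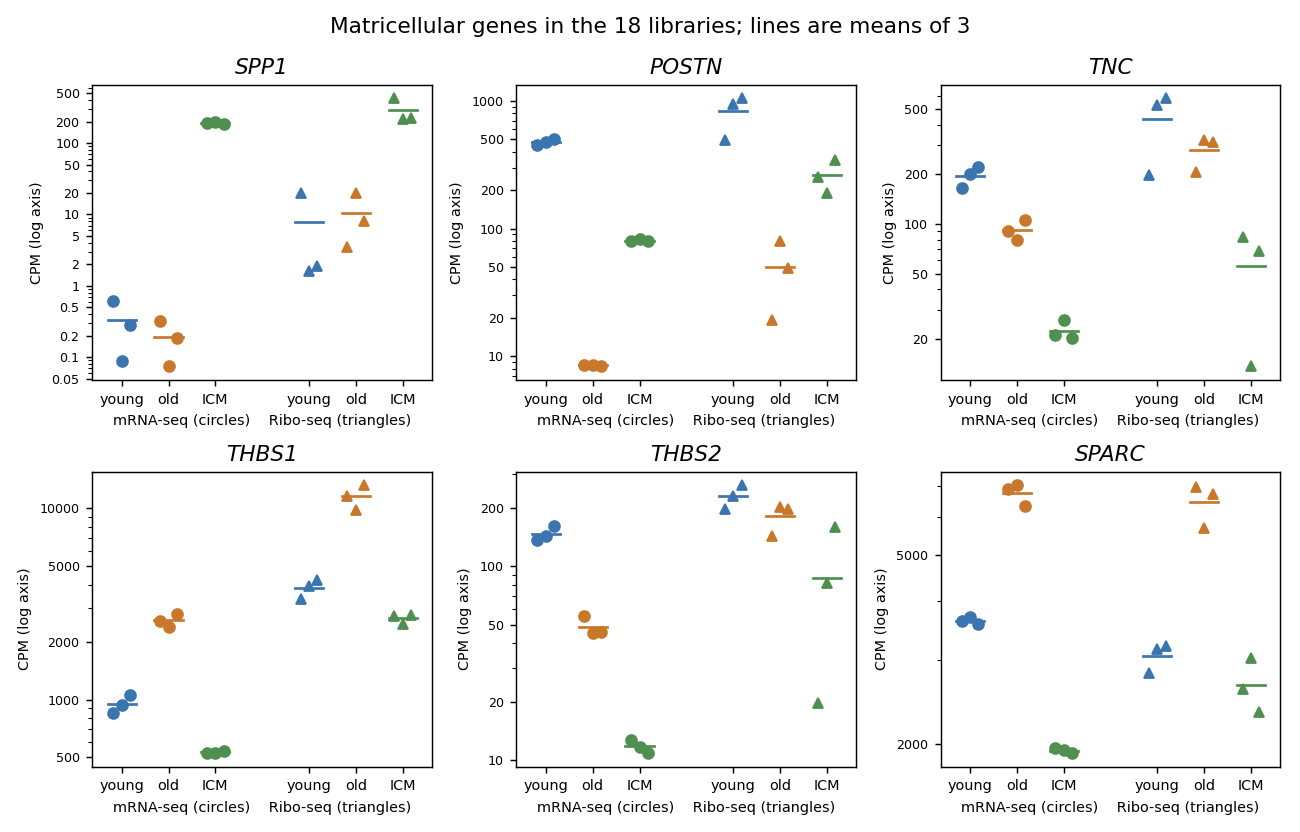
CPM of each gene (vertical log axis, a separate scale per panel) in young, old and ICM libraries, with mRNA-seq as circles on the left and Ribo-seq as triangles on the right; a line is the mean of 3 replicates. The ICM libraries are the only high ones for SPP1 and the lowest ones for mRNA of TNC, THBS1, THBS2 and SPARC, and the old libraries are the lowest for POSTN.

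SPP1 mRNA stood at 0.620, 0.0872 and 0.286 CPM in the young libraries, 0.323, 0.0741 and 0.185 CPM in the old libraries, and 191, 196 and 186 CPM in the ICM libraries. The young and old ranges overlapped, and every ICM library lay far above both. These levels rest on 9 young, 6 old and 6866 ICM reads, so the ICM level was 638 times the young level, with an exact Poisson interval of 336 to 1395 that covers counting error only. The fitted log2 change was 9.26 (SE 0.16) in ICM vs young and 9.97 (SE 0.17) in ICM vs old. Old and young cells could not be ordered at this depth, since the log2 change of -0.71 (SE 0.69) became 0.44 without the 2 lysates of low CDS share.

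Footprints on SPP1 were unequal too, with a smaller log2 change than in mRNA. They amounted to 19.8, 1.60 and 1.91 CPM in young, 3.56, 20.1 and 8.21 CPM in old, and 424, 218 and 228 CPM in ICM libraries. Behind the 3 young values were 1, 1 and 3 reads, behind the old values 5, 1 and 4, and behind the ICM values 86, 16 and 10. Every ICM library lay above every other library, and the high young and old values were single reads in the 2 shallow libraries with a low CDS share. The pooled footprint level was 157 times higher in ICM than in young cells (exact Poisson interval 65.4 to 494), and the log2 change was 7.03 (SE 0.54).

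POSTN mRNA, in contrast, was abundant in young cells, at 452, 478 and 504 CPM. The old libraries held 8.60, 8.60 and 8.34 CPM and the ICM libraries 79.9, 82.4 and 79.6 CPM. The 3 conditions were fully apart, with ICM cells between young and old. Log2 changes were -5.81 (SE 0.08) in old vs young, -2.57 (SE 0.06) in ICM vs young and 3.24 (SE 0.09) in ICM vs old.

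POSTN footprints kept that order. They stood at 495, 943 and 1044 CPM in young, 19.2, 80.5 and 49.3 CPM in old, and 251, 191 and 343 CPM in ICM cells. Behind the young values were 25, 590 and 1641 reads, behind the old values 27, 4 and 24, and behind the ICM values 51, 14 and 15. No library of 1 condition reached into the range of another, although young replicate 1, of low CDS share, lay well below the other young libraries. Log2 changes were -4.87 (SE 0.30) in old vs young and -1.85 (SE 0.28) in ICM vs young. When all Ribo-seq libraries were thinned to the depth of the shallowest one, the change in old cells was -3.92.

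TNC mRNA was 164, 201 and 223 CPM in young, 90.6, 79.8 and 106 CPM in old, and 21.1, 26.2 and 20.2 CPM in ICM libraries, with no overlap between conditions. The log2 change was -1.10 (SE 0.10) in old vs young and -3.13 (SE 0.12) in ICM vs young. THBS2 mRNA followed the same steps, with 137, 142 and 160 CPM in young, 55.6, 45.2 and 45.6 CPM in old, and 12.8, 11.7 and 10.9 CPM in ICM libraries. Its log2 changes were -1.59 (SE 0.08) and -3.63 (SE 0.10), so that of the 5 members abundant in young cells THBS2 was furthest below its young level under ICM. Thrombospondin 2 and tenascin-C are both proteins that limit or loosen cell adhesion.

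The footprints of this pair were less clear-cut. TNC stood at 198, 524 and 578 CPM in young, 206, 322 and 314 CPM in old, and 83.8, 13.6 and 68.5 CPM in ICM Ribo-seq libraries. The ICM libraries were below all others, whereas old and young overlapped through young replicate 1. The log2 changes were -0.96 (SE 0.23) in old vs young and -2.97 (SE 0.38) in ICM vs young.

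THBS2 footprints amounted to 198, 230 and 262 CPM in young, 144, 201 and 197 CPM in old, and 19.7, 81.8 and 160 CPM in ICM cells. Old and young overlapped slightly, and the ICM values spread over a wide range that reached the old one, on 4, 6 and 7 reads. The log2 change in old cells was -0.54 (SE 0.22) against -1.59 in mRNA, and in ICM cells -2.14 (SE 0.40) against -3.63 in mRNA.

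THBS1 and SPARC were higher in senescent than in young cells. THBS1 mRNA, for a protein that activates latent TGF-beta and blocks vessel growth, stood at 852, 933 and 1051 CPM in young, 2579, 2406 and 2795 CPM in old, and 527, 524 and 539 CPM in ICM libraries. SPARC mRNA stood at 3621, 3701 and 3576 CPM in young, 6878, 7023 and 6357 CPM in old, and 1955, 1935 and 1908 CPM in ICM libraries. For both genes the 3 conditions were fully apart and old cells were highest. THBS1 changed by 1.46 (SE 0.07) in old vs young and -0.83 (SE 0.07) in ICM vs young on the log2 scale, and SPARC by 0.89 (SE 0.06) and -0.91 (SE 0.06).

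In footprints old cells were again highest, and ICM cells lay closer to young cells than in mRNA. THBS1 stood at 3367, 3906 and 4203 CPM in young, 11675, 9778 and 13246 CPM in old, and 2740, 2496 and 2786 CPM in ICM Ribo-seq libraries, with no overlap. SPARC stood at 2813, 3164 and 3213 CPM in young, 6944, 5694 and 6732 CPM in old, and 2611, 3028 and 2329 CPM in ICM libraries. Here ICM and young overlapped, and only the old libraries were apart. The log2 changes of THBS1 were 1.59 (SE 0.15) in old and -0.53 (SE 0.16) in ICM cells, and those of SPARC were 1.07 (SE 0.15) and -0.21 (SE 0.16). Without the 2 lysates of low CDS share THBS1 had -0.74 in ICM vs young. In ICM vs old THBS1 went from -2.12 with all lysates to -2.39 without them, and SPARC from -1.28 to -1.52.

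By footprints, 1 of the 6 was at least 2-fold higher (SPP1) and 3 were at least 2-fold lower (POSTN, TNC and THBS2) in ICM vs young, where 12.1% and 13.6% of 4643 genes tested were. In old vs young 3 were 2-fold higher (SPP1, THBS1 and SPARC) and 1 was 2-fold lower (POSTN), against 9.22% and 8.12% of genes. The SPP1 value there was 1.15 (SE 0.93) on 10 and 5 reads. In ICM vs old the same 2 genes as in mRNA were higher and the same 4 were lower, against 6.74% and 10.3% of genes.

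**Figure D2:**
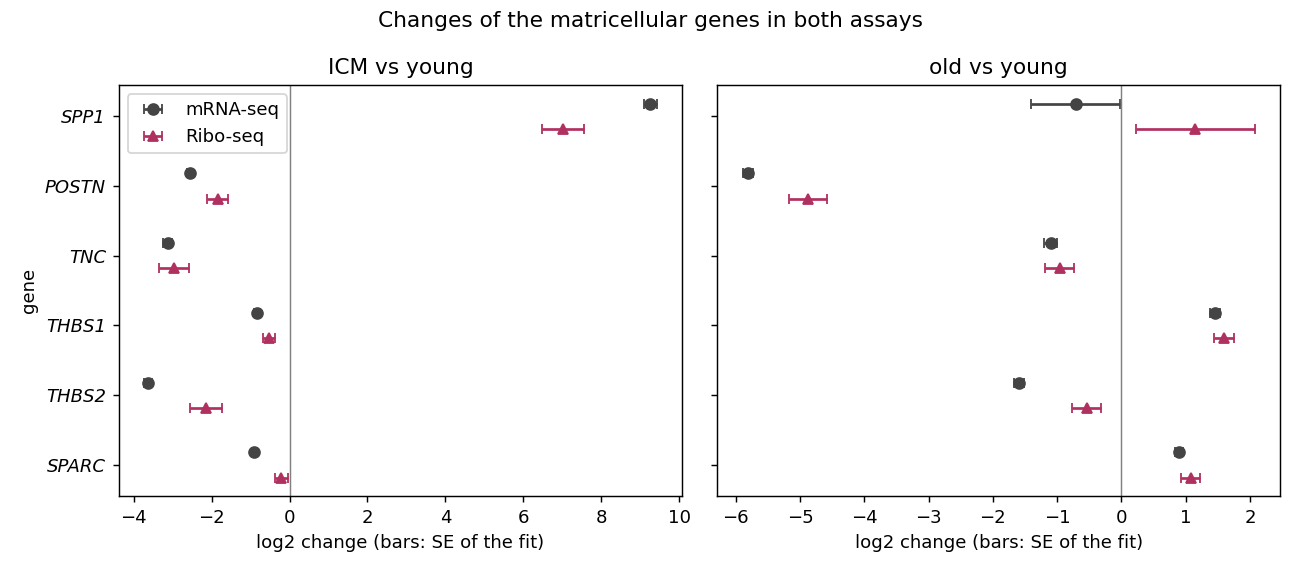
Log2 change of each gene in mRNA-seq (circles) and Ribo-seq (triangles) against young cells, for ICM on the left and old cells on the right; bars are the SE of the fit and both comparisons share the young libraries. SPP1 stands alone on the right of the ICM panel at 9.26 and 7.03, and POSTN on the left of the old panel at -5.81 and -4.87.

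The order of the genes by abundance was compared per length, as CDS CPM per kilobase of CDS in mRNA-seq. In young cells SPARC led with 2983 ± 149 (SD, n = 3), followed by THBS1 with 287 ± 34.5, POSTN with 253 ± 10.9, THBS2 with 47.0 ± 3.76, TNC with 42.3 ± 7.57 and SPP1 with 0.376 ± 0.406. The ranges of THBS1 and POSTN overlapped, as did those of THBS2 and TNC. In old cells SPARC reached 5582 ± 125 and THBS1 796 ± 72.9, then came TNC with 19.9 ± 2.88 and THBS2 with 16.6 ± 2.17, which overlapped, and POSTN took the fifth place with 4.69 ± 0.202. In ICM cells SPP1 took the second place with 245 ± 10.6, below SPARC with 1651 ± 60.3 and above THBS1 with 168 ± 3.36, POSTN with 43.3 ± 2.34, TNC with 4.81 ± 0.654 and THBS2 with 3.72 ± 0.142, and no neighbours overlapped.

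Footprint density per kilobase ranked THBS1 closer to SPARC. In young cells SPARC stood at 3359 ± 239 and THBS1 at 1089 ± 121 CPM per kilobase of CDS (SD, n = 3), and in old cells at 7080 ± 733 and 3293 ± 494. In ICM cells SPARC stood at 2913 ± 386, THBS1 at 761 ± 44.3 and SPP1 at 307 ± 123, ahead of POSTN with 104 ± 30.4. SPP1 thus held the third place by footprints in ICM cells and the last in young cells. In old cells SPP1 with 11.2 ± 9.04, on 1 to 5 reads a library, and POSTN with 19.8 ± 12.2 overlapped in the last 2 places.

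Footprints relative to mRNA were also taken within each lysate, as the gene's share of all CDS footprints over its share of all CDS mRNA reads, a ratio in which the gene's length cancels. THBS1 had 3.48, 3.54 and 3.36 in young, 3.66, 3.65 and 3.77 in old, and 4.10, 3.93 and 4.20 in ICM lysates. The 9 values lay close together, the conditions did not overlap, and THBS1 mRNA carried over 3 times its share of footprints everywhere. SPARC had 0.969, 1.00 and 1.11 in young, 1.18, 1.05 and 1.18 in old, and 1.54, 1.77 and 1.45 in ICM lysates, where the ICM lysates were above all others. SPARC thus lay below THBS1 in every lysate.

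The other members had noisier ratios. POSTN had 1.17 ± 0.373 in young, 3.78 ± 2.34 in old and 2.19 ± 0.756 in ICM lysates (SD, n = 3), and every old and ICM lysate was above every young one. The old POSTN ratios rest on 27, 4 and 24 footprints. TNC had 1.36 ± 0.483, 1.96 ± 0.636 and 1.65 ± 1.15, with overlap between all conditions. THBS2 had 1.26 ± 0.0733, 2.86 ± 0.881 and 6.18 ± 5.19, where every old lysate was above every young one and 1 of the ICM lysates fell within the young range. SPP1 in ICM lysates, the only condition with more than 5 CDS reads in every library of both assays, had 1.11 ± 0.390.

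**Figure D3:**
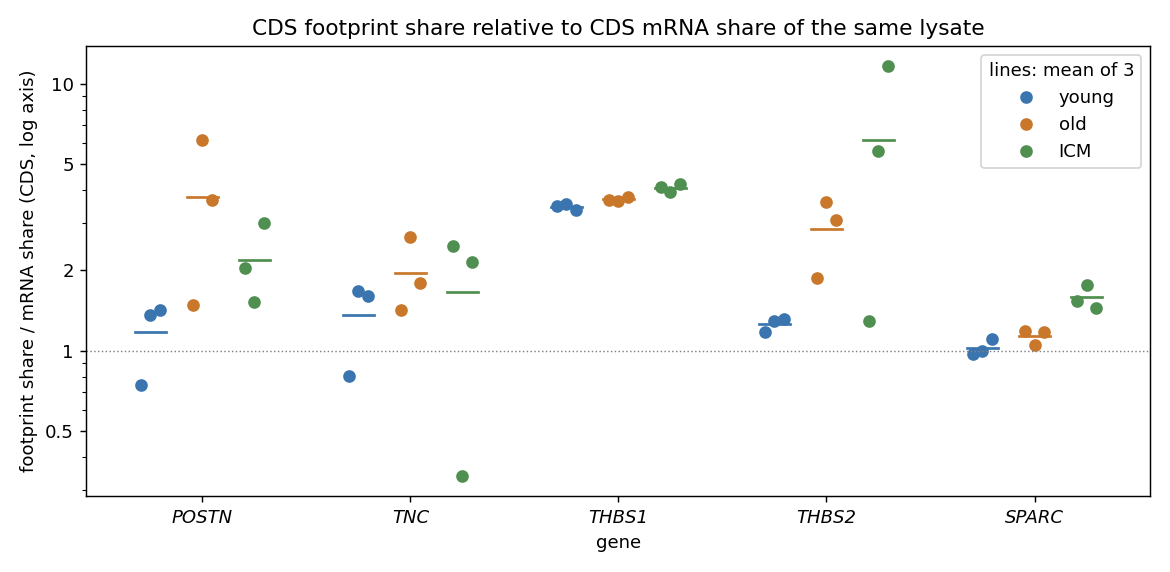
Share of CDS footprints over share of CDS mRNA reads of the same lysate (vertical log axis) for 5 genes, with 1 point per lysate coloured by condition and a line at the mean of 3; the dotted line marks equal shares. THBS1 stays between 3.36 and 4.20 in all 9 lysates, SPARC between 0.969 and 1.77, and the THBS2 values in ICM lysates run from 1.29 to 11.6.

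Translational efficiency was fitted over all 18 libraries as the interaction of assay and condition, with the lysate as a block. The log2 difference in ICM vs young was 1.52 (SE 0.58) for THBS2, 0.75 (SE 0.29) for POSTN, 0.70 (SE 0.17) for SPARC, 0.32 (SE 0.16) for THBS1 and 0.25 (SE 0.46) for TNC. In old vs young it was 1.11 (SE 0.27) for THBS2, 1.06 (SE 0.36) for POSTN, 0.25 (SE 0.17) for SPARC, 0.21 (SE 0.23) for TNC and 0.20 (SE 0.16) for THBS1. With all lysates the 10 values, which leave out SPP1, were positive, and the medians over the 4618 genes tested were 0.0628 and 0.0539. The members were chosen by the mRNA and footprint values behind these differences, and both comparisons share the young libraries. Their signs are therefore not set against those medians. TNC did not keep its sign, with -0.88 in ICM cells without ICM replicate 1 and -0.04 in old cells without the 2 lysates of low CDS share. SPARC had 0.46 in ICM and 0.06 in old cells without young replicate 1, and 0.47 in ICM cells without both of those lysates. SPP1 had -2.65 (SE 1.20) in ICM vs young, on 5 footprints and 9 mRNA reads in young cells.

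The deposited files also split reads by transcript region, which the rule had not used apart from summing them. SPARC has a short CDS of 912 bases and a 3′ UTR of 2475 bases, and 42.3% of its young mRNA reads lay in the 3′ UTR. For THBS1, whose 3′ UTR of 4097 bases is longer than its CDS of 3513 bases, that share was 28.1%. POSTN and TNC had 10.4% and 5.52%, and THBS2 had 23.1%.

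The 3′ UTR of SPARC took 44.5% of reads in old and 39.7% in ICM cells, with overlapping young and ICM libraries at 41.2% and 41.3%. That of THBS1 took 28.5% in old and 25.6% in ICM cells, and that of TNC 6.05% in old and 8.23% in ICM cells. POSTN had 8.04% and 9.40% and THBS2 20.8% and 25.0% in old and ICM cells. By single library the shares of POSTN, TNC and THBS2 overlapped between all conditions. Those of SPARC and THBS1 overlapped between young and old cells. SPP1 in ICM cells, the only condition with enough reads, had 21.7% of its reads in the 5′ UTR and 2.17% in the 3′ UTR, although these regions make up 6.47% and 33.0% of its transcript of 1561 bases. This tilt was not particular to SPP1. In young cells the 5′ UTR of SPARC took 9.52% of reads on 1.85% of length, and that of POSTN 4.50% on 1.27%. Those of THBS1 and THBS2 also exceeded their share of length, whereas TNC had 3.15% on 3.67%. The 3′ UTR fell short of its share of length in every member, as in SPARC with 42.3% on 71.7%. In footprints, 112 of the 116 SPP1 reads of the ICM libraries lay in the CDS.

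**Figure D4:**
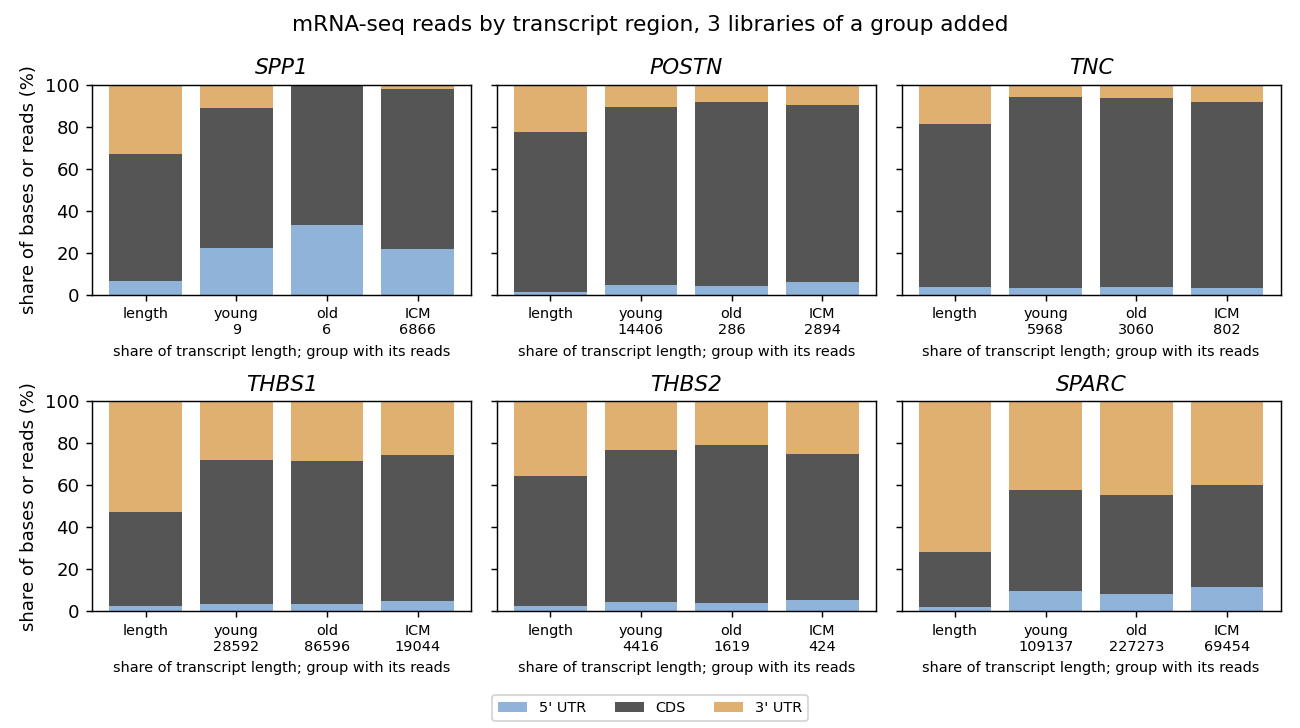
Share of 5′ UTR, CDS and 3′ UTR (vertical axis, percent) in the length of the MANE Select transcript, first bar, and in the mRNA-seq reads of young, old and ICM libraries, with the 3 libraries of a group added and their reads under the bar. The CDS takes a larger share of reads than of length in every bar, and SPP1 in ICM cells has 2.17% of its reads in the 3′ UTR; the young and old SPP1 bars rest on 9 and 6 reads.

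Among all 6 genes the closest patterns over the 9 mRNA-seq libraries were those of THBS1 and SPARC and those of TNC and THBS2. Likeness was measured as the root mean square difference of log2 CPM after centring each gene. It was 0.28 for THBS1 and SPARC and 0.29 for TNC and THBS2, and the next pair, SPARC and TNC, was at 1.01. The 250 bases before the RefSeq start of these 4 genes are shown because each pair moves together. They are written on the coding strand in GRCh38.p14, with matches to any of 5 motifs searched on both strands in capitals.
THBS1, chr15:39580829-39581078, plus strand: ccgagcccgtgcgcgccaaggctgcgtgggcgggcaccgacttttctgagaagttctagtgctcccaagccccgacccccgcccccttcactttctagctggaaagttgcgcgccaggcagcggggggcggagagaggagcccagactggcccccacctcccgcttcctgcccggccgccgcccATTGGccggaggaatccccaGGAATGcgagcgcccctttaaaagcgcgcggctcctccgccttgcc
SPARC, chr5:151686916-151687165, minus strand: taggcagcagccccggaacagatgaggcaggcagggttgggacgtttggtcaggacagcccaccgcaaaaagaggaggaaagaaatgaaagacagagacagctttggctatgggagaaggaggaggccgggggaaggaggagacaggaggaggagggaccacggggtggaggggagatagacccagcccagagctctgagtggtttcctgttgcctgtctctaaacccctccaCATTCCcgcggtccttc
TNC, chr9:115118158-115118407, minus strand: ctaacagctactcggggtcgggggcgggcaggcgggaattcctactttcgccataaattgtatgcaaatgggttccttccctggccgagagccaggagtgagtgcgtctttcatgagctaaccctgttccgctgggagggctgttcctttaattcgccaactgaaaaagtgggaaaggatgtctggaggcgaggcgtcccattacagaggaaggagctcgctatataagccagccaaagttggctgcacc
THBS2, chr6:169253847-169254096, minus strand: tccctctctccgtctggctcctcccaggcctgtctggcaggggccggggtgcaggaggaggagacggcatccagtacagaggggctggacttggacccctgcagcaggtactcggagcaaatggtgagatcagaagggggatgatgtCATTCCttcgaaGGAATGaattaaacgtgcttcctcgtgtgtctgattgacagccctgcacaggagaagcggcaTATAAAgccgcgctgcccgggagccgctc

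The motifs were the TATA box TATAAA, the AP-1 motif TGANTCA, the TEAD motif GGAATG, the CCAAT box CCAAT and the RUNX motif TGTGGT. Of 35116 promoters in the table, 10.7%, 6.57%, 11.9%, 32.0% and 11.0% held them in this order. The TEAD motif occurred in THBS1, in SPARC and at 2 places in THBS2, and the CCAAT box in THBS1. The letters of the TATA box occurred in THBS2 and at 2 places in POSTN. In POSTN the match 29 to 24 bases before the start was on the coding strand, and that at 182 to 177 bases was on the other strand. POSTN also held the AP-1 motif, SPP1 the RUNX motif, and TNC no exact match to any of the 5. Variants of these letters, such as other forms of the TATA box, were not searched. The bases before the start were 36.4% G and C in POSTN, 44.8% in SPP1 and 69.6% in THBS1, around a median of 58.0% over all promoters. A match is a description of the letters and not a bound site.

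Genes that shared a member's mRNA pattern were named by the smallest root mean square difference among 11332 candidates. For SPP1 these were AKR1C1, AKR1C2 and AKR1C4 (0.95, 0.99 and 1.15), aldo-keto reductases whose near-identical copies leave the single genes uncertain. AKR1C1 went from 15.3 ± 1.68 CPM in young to 1720 ± 47.0 CPM in ICM cells (SD, n = 3). For POSTN they included SERPINF1 and VANGL2 (0.51 and 0.55), of which SERPINF1, for the secreted factor PEDF, went from 31.3 ± 3.32 in young to 1.11 ± 0.282 in old and 7.64 ± 1.34 CPM in ICM cells.

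For TNC the nearest genes were DCHS1, CDC6 and ANPEP (0.17, 0.19 and 0.21), and for THBS2 they were OAS3, FBLN1 and MCM7 (0.13, 0.14 and 0.15). CDC6 and MCM7 serve DNA replication, and FBLN1 encodes the matrix protein fibulin-1, at 302 ± 19.5, 104 ± 9.59 and 23.3 ± 0.860 CPM in young, old and ICM cells. For THBS1 they were CALD1, ENC1 and ECM1 (0.12, 0.13 and 0.14), and for SPARC PNP, MCAM and MET (0.09, 0.10 and 0.11). CALD1, for the actin-binding protein caldesmon, stood at 673 ± 9.94, 1625 ± 101 and 328 ± 13.0 CPM in young, old and ICM cells. By Pearson correlation, which ignores the size of a change, only SERPINF1 of the genes named here was again among the nearest 3 of its member.

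Cell type markers were read beside these values. All 10 fibroblast markers were detected, with a summed mRNA level of 28990 to 32841 CPM in young, 27383 to 30731 CPM in old and 12288 to 12783 CPM in ICM libraries. COL1A1 made up most of that drop, from 14510 ± 1099 CPM in young to 3064 ± 123 CPM in ICM cells (SD, n = 3). COL1A2, COL3A1, PDGFRA, PDGFRB, THY1, VIM and FAP were also lower in every ICM library than in every young one. VIM, for example, stood at 3916 ± 150 CPM in young and 1657 ± 31.8 CPM in ICM cells. DCN and LUM did not drop, with DCN at 1413 ± 32.4 and 1571 ± 149 CPM and LUM at 145 ± 3.05 and 144 ± 7.38 CPM in young and ICM cells. The summed level of the 6 smooth muscle and myofibroblast markers, all detected, went in the direction of THBS1 and SPARC, from 3128 to 3652 CPM in young, 5229 to 5363 CPM in old and 320 to 347 CPM in ICM libraries, and their part in the THBS1 and SPARC values was not tested. TAGLN held most of the sum in young and old cells, whereas MYH11 was lower in old than in young cells (18.4 ± 2.13 and 31.6 ± 1.17 CPM) and DES overlapped between them (49.5 ± 5.38 and 51.6 ± 3.02 CPM). In bulk RNA fewer cells of a type and less RNA per cell cannot be told apart.

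For SPP1, markers of the cells best known to make it were looked up. Of 8 macrophage markers C1QA and C1QB were at 0 in all libraries and only CD68, a lysosomal protein that fibroblasts also make, exceeded 1 CPM. CD68 stood at 20.6 ± 1.11 CPM in young and 58.6 ± 6.15 CPM in ICM cells (SD, n = 3). Of 7 osteoblast markers SP7, DMP1 and MEPE were at 0, and the summed level was 17.6 to 20.2 CPM in young, 9.49 to 11.6 CPM in old and 6.99 to 8.05 CPM in ICM libraries, nearly all of it ALPL and RUNX2. The 7 epithelial markers together stayed at 0.526 to 2.35 CPM, with NKX2-1 at 0. Of 6 endothelial markers CDH5 was at 0, and the sum of 52.1 to 107 CPM was nearly all TEK.

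The other genes of the pathway were taken from 4 lists of 89 genes, of which 71 passed the filter in mRNA-seq and 45 in Ribo-seq. Calls are those of edgeR's quasi-likelihood test at a Benjamini-Hochberg adjusted p under 0.05 over all genes. In mRNA, 23 rose and 37 fell in ICM vs young, where 71.0% of all genes were called. In old vs young 37 rose and 19 fell (66.1% of all genes called), and in ICM vs old 14 rose and 40 fell (63.3%). Over all genes 4597 rose and 4760 fell in ICM vs young, and 4271 rose and 4438 fell in old vs young. These shares and splits are the background of each list below as well. The median log2 change of the 71 was -0.33 in ICM and 0.23 in old cells against young, beside -0.00698 and -0.0149 over all genes.

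In footprints 13 rose and 10 fell in ICM vs young, where 26.6% of genes were called. In old vs young 16 rose and 4 fell (36.3%), and in ICM vs old 4 rose and 13 fell (13.4%). For translational efficiency 1 rose and 0 fell in ICM vs young, where 2.45% of genes were called, and edgeR called 0 in old vs young (1.45% of genes) and 0 in ICM vs old (0.260%). At an unadjusted p under 0.05 there were 7, 6 and 1 of the 45 in this order, where 15.9%, 13.1% and 10.6% of all genes were, and DESeq2 called 1, 0 and 1. The gene called by edgeR was FN1, for fibronectin, with a log2 difference of 0.77 (SE 0.17, edgeR adjusted p 0.00545). Its call was lost on leaving out any 1 young or ICM lysate (edgeR adjusted p 0.0566 to 0.186), with a difference of 0.47 without young replicate 1, 0.58 without ICM replicate 3 and 0.73 to 0.75 without any of the other 4.

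Of 24 family relatives 11 were tested in mRNA, and 3 rose and 6 fell in ICM vs young against 6 and 4 in old vs young (median log2 changes -0.61 and 0.37). CCN2, the connective tissue growth factor, rose in both, from 848 ± 135 CPM in young to 2359 ± 155 in old and 1857 ± 87.1 in ICM cells (log2 changes 1.48 and 1.13, edgeR adjusted p 1.99e-12 and 9.56e-11). SMOC1, a SPARC relative, rose in ICM cells by 0.99 (SE 0.16), and TGFBI, a periostin relative, by 0.25 (SE 0.06) in ICM and 0.37 in old cells. WISP1, of the CCN family, rose by 0.49 (SE 0.09) in old cells and fell by 2.08 in ICM cells, as log2 changes. The proteoglycan gene SPOCK1 fell by 1.87 in ICM and 0.76 in old cells, and THBS3 by 0.63 and 0.69. FSTL1, a further SPARC relative, rose by 0.57 (SE 0.06) in old cells and fell by 0.27 in ICM cells.

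Among receptors 18 of 21 were tested, and 7 rose and 8 fell in ICM vs young while 13 rose and 2 fell in old vs young (median log2 changes 0.0028 and 0.48). CD36, a thrombospondin receptor, rose from 0.610 ± 0.134 CPM in young to 6.90 ± 0.480 in old and 6.86 ± 0.717 in ICM cells. ITGB3, the beta chain of an osteopontin receptor, rose by 1.07 (SE 0.06) in ICM and 0.46 in old cells, and CD47, another thrombospondin receptor, by 0.75 and 0.31. ITGB5, whose integrin binds periostin, rose by 1.87 (SE 0.06) in old and 0.67 in ICM cells.

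ITGA8, which binds osteopontin and tenascin-C, rose only in the old libraries, from 0.403 ± 0.185 to 15.4 ± 1.12 CPM (log2 change 5.23, edgeR adjusted p 6.90e-15), and stood at 0.586 ± 0.0707 CPM in ICM cells. Its log2 change in ICM vs old was -4.69. The syndecans SDC1 and SDC4 fell in both conditions, by 1.76 and 1.44 in ICM and 1.70 and 0.64 in old cells. ITGA4 fell by 0.96 in ICM cells and rose by 0.51 in old cells.

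Of 20 processing enzymes and partners 18 were tested, with 5 up and 12 down in ICM vs young and 9 up and 3 down in old vs young (median log2 changes -0.91 and 0.12). MMP3, the protease stromelysin that cuts osteopontin and tenascin-C, rose from 0.647 ± 0.199 CPM in young to 5.38 ± 2.22 in old and 162 ± 12.3 in ICM cells (log2 changes 3.00 and 7.90). TGM2, the transglutaminase that cross-links osteopontin, rose by 2.21 (SE 0.08) in old cells and fell by 1.72 in ICM cells, and its footprints rose by 2.59 and fell by 1.39. COL1A1 fell by 2.24 in ICM cells, with -0.11 (SE 0.08) in old cells. FAM20C, the kinase that phosphorylates osteopontin, fell by 1.33 in ICM cells, with -0.05 in old cells.

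LOX, which cross-links collagen, rose by 1.06 (SE 0.07) in old and 0.29 in ICM cells, and COL3A1 and MMP2 fell in both, by 0.90 and 1.01 in ICM and 0.94 and 0.87 in old cells. POFUT2, which adds fucose to thrombospondin repeats, rose by 1.04 (SE 0.08) in ICM cells and 0.89 in old cells, and CTSB by 0.57 (SE 0.06) and 0.36. FN1 mRNA fell by 1.14 in ICM cells. Its call in old cells, at 0.25, was lost on leaving out any 1 of 5 lysates (young replicates 1 to 3, old replicates 1 and 3), and that of ADAMTS1, at -0.19, on leaving out any 1 of 4 (young replicates 2 and 3, old replicates 1 and 2).

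All 24 upstream regulators were tested, and 8 rose and 11 fell in ICM vs young against 9 and 10 in old vs young (median log2 changes -0.20 and -0.023). TGFBR2, a TGF-beta receptor, rose by 2.30 (SE 0.06) in old and 0.92 (SE 0.06) in ICM cells, and TGFB2 by 1.92 (SE 0.07) and 0.36. SMAD7 rose by 0.97 in old and 0.93 in ICM cells, and JUN by 0.76 in ICM cells. The transcription factor genes EGR1, RUNX2 and ETS1 fell by 3.50, 2.29 and 1.94 in ICM cells, and in old cells their log2 changes were -1.53, -0.81 and -0.49. RUNX2, a regulator of SPP1 in bone, stood at 1.59 ± 0.315 CPM in the ICM libraries, and its part in the SPP1 values was not tested. PRRX1 and TWIST1, the latter a regulator of POSTN, fell by 1.78 and 1.39 in old cells. TWIST1 fell by 0.75 in ICM cells as well, where PRRX1 had -0.12 (SE 0.09).

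**Figure D5:**
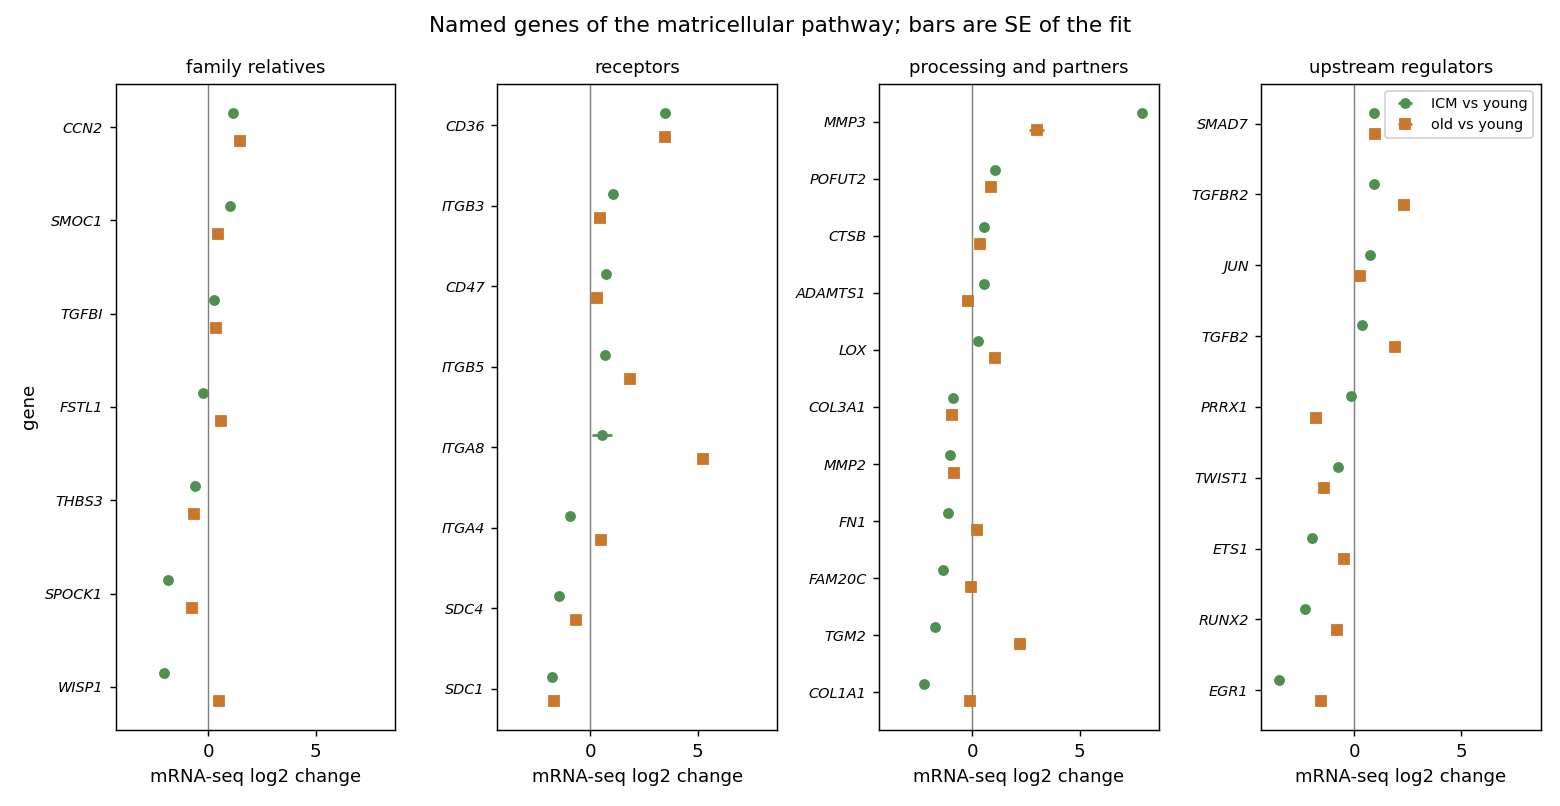
mRNA-seq log2 change (horizontal axis) of the named genes of the 4 pathway lists, ICM vs young as circles and old vs young as squares, with the SE of the fit as bars; the young libraries are shared. MMP3 stands at 7.90 for ICM and ITGA8 at 5.23 for old cells, while TGM2, WISP1 and ITGA4 lie on opposite sides of 0.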

How the data were processed

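Per the study's methods, the authors harvested 3 cultures per condition with cycloheximide and divided each lysate between Ribo-seq and poly(A) mRNA-seq. The labels instead describe Trizol lysis of total RNA, and the series' design text counts 4 young, 4 senescent and 2 ICM samples; the sample titles give 3 of each, and the methods were followed. The methods list all 3 conditions together, whereas the study's results text compares its ICM and young data with replicative senescence data from an earlier study. Whether the old libraries are those earlier data is not given. A batch of the old libraries could therefore not be told apart from their condition. The submitters' processing notes name GRCh37, STAR 2.6.0c, featureCounts, DESeq2 and deepTools, with no role for each. The deposited tables hold the authors' estimated counts per gene symbol and transcript region, not scaled to depth. The methods count unique reads for the study's other RNA-seq, and whether this held for these tables is not given in the sources used here. From 14.1% to 23.2% of the non-zero Ribo-seq values of a library were not whole, and all were rounded.

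CDS counts were used for Ribo-seq and the sum of 5′ UTR, CDS and 3′ UTR counts for mRNA-seq. Each assay was fitted with edgeR 4.0.16 in R 4.3.3 (quasi-likelihood test, TMM, filterByExpr, 9 libraries, two-sided, Benjamini-Hochberg adjusted p under 0.05). Standard errors were taken from the change and its F statistic. Translational efficiency was the interaction in 18 libraries with the lysate as a block, which rests on the methods. Deviations of both assays of a lysate correlated with r from -0.0795 to 0.136. In simulated counts with 2-fold changes in ICM vs young, the test called 99.5% of 200 changed genes among 12986 in mRNA-seq, 42.5% of 186 among 4298 in Ribo-seq and 39.0% of 182 among 4249 for translational efficiency.

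The members and the gene lists were chosen with earlier results of these data known. Named genes were the members, the 3 genes of nearest pattern for each (at least 5 CPM in 1 condition), and from each pathway list the 3 largest called rises and falls against young cells. A gene of nearest pattern to POSTN is not reported here. Alternatives were RLE scaling, no filter, DESeq2 1.42.0, fits of only the compared groups, blocks, CDS reads only, thinned Ribo-seq, a log2 threshold of 0.6, and leaving out each lysate. Leaving out both lysates of low CDS share was added after seeing the data. Replicates were separate cultures per the methods. Intervals cover counting error only.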

Additional observations from a re-analysis of the deposited data

How the results depend on the processing

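No member changed direction in a comparison in which it was at least 2 SE from 0. Of 705 member values under the alternatives, 685 moved by less than their spread and 20 by more, and 0 of those beyond their spread from 0 changed sign. Of 3151 values of other named genes 113 lost and 27 gained a call, and 0 reversed. The cause of these shifts was not tested. With an absolute log2 change over 0.6, mRNA calls went from 9357 to 5055 in ICM vs young, from 8709 to 4289 in old vs young and from 8338 to 3870 in ICM vs old, and those of the pathway from 60 to 39 and from 56 to 33 against young.

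Ribo-seq calls (1236, 1685 and 623 for ICM vs young, old vs young and ICM vs old) were 688, 530 and 341 with DESeq2, 813 and 3142 for the first 2 in fits of only the compared groups, and 270, 201 and 182 after thinning, which tested fewer genes. Pathway calls in Ribo-seq (23, 20 and 17) were 15, 8 and 10 after thinning and 13 in old vs young with DESeq2. After thinning, 2 in place of 4 members differed by 2-fold against young in both comparisons, as SPP1 and THBS2 no longer passed the filter and SPARC lay just under 2-fold in old cells. Leaving out 1 lysate gave 619 to 1758, 516 to 2160 and 332 to 924 Ribo-seq calls, with 12 to 23 pathway calls in ICM vs young (lowest without ICM replicate 1) and 10 to 22 in old vs young (lowest without young replicate 2).

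Deviations of libraries with the same replicate number correlated with r from -0.0555 to 0.103 in mRNA-seq and from 0.00467 to 0.0557 in Ribo-seq. Both assays of a lysate, taken as paired, also had r near 0 (-0.0795 to 0.136). The check therefore cannot show whether the replicate numbers pair the samples. With the replicate block Ribo-seq calls were 653 in old vs young (13 of them pathway genes) and 741 in ICM vs young. For translational efficiency (113, 67 and 12 calls), the fit without the lysate as a block gave 308, 462 and 53 calls, and 2 and 1 pathway calls in old vs young and ICM vs old.

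Translational efficiency calls were 41 and 21 in old vs young and ICM vs old with DESeq2 (1 pathway call in ICM vs old), 39 in ICM vs old with no filter, 40, 266 and 7 in fits of only the compared groups (0 and 1 pathway calls against young), and 26, 6 and 6 after thinning. Without both lysates of low CDS share there were 38 calls in ICM vs old. Leaving out 1 lysate gave 34 to 173, 18 to 79 and 3 to 45 calls. The pathway call in ICM vs young, FN1, was also lost with no filter and without both lysates of low CDS share (0 calls), and leave-one-out gave 0 pathway calls throughout. Low Ribo-seq depth limits SPP1, POSTN, TNC and THBS2 in ICM cells, on 112, 80, 21 and 17 CDS reads. It also limits SPP1 and POSTN in old cells, on 10 and 55 CDS reads, and SPP1 in young cells, on 5.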
